A study of Solanum lycopersicum with 6 samples.

Results

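miR394 is a conserved plant microRNA (miRNA), one of the small RNAs by which plants cleave or silence mRNAs with a matching site. Both of its arms, sly-miR394-5p and sly-miR394-3p (below without the species prefix), were taken by name from the deposited table of mature tomato miRNAs, 2 entries of 137, and followed through 6 small RNA libraries of tomato (Solanum lycopersicum) fruit. Drought fruit (3 libraries) came from pots that, after flowering, were given nothing but diluted liquid fertilizer, a single time each week. Control fruit (3 libraries) came from pots in a repeating cycle of diluted fertilizer on 1 day and plain water on the next. All fruit was at the green stage, and all plants stood in a greenhouse kept at 25 °C during 12 h of light and at 20 °C in the dark. Fertilizer was diluted 500-fold for both groups, so less water and less fertilizer cannot be told apart. The labels name no cultivar and leave unstated whether libraries are from different plants. The p-values therefore measure no more than how far these libraries differ, which may be technical. The table holds no mRNA, so the labelled tissue was not checked against markers and target mRNAs were not measured.

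A miRNA is cut from a hairpin precursor as a duplex of a 5p and a 3p arm, of which one arm usually enters Argonaute and guides silencing while the other, the passenger arm, is mostly degraded. For miR394 the guide is the 5p arm. In Arabidopsis it targets LEAF CURLING RESPONSIVENESS (LCR), an F-box protein, the subunit with which an SCF ubiquitin ligase holds its substrate. Also in Arabidopsis, miR394 made in the outermost cell layer of the shoot meristem moves inward and represses LCR, which keeps the cells below competent as stem cells, and altered miR394 or LCR levels have been linked to abscisic acid, salt and drought responses. The tomato gene table used for names, of assembly SLM_r2.1, lists 1 MIR394 gene among 101 miRNA genes, so both arms are treated here as products of 1 precursor.

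The libraries held from 430732 to 468711 miRNA counts in drought and from 644434 to 749332 in control. Values are given as counts and as counts per 1e+06 counts (CPM) after TMM scaling, which multiplied the totals by 0.848 to 1.35 in drought and by 0.909 to 1.003 in control. Drought library 2 had the factor of 1.35. Intervals are 95% Poisson or Wilson intervals and cover counting error only, since PCR copies are not marked.

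miR394-5p was higher in drought fruit than in control fruit in every library. It was counted 160, 775 and 222 times in drought libraries 1 to 3, against 143, 76 and 104 times in control libraries 1 to 3, although the control libraries were deeper. Scaled to depth, it stood at 426, 1223 and 519 CPM in the drought libraries and at 238, 118 and 144 CPM in the control libraries. The groups did not overlap, and drought library 2 lay above all others by more than counting error (Poisson interval 1139 to 1313 CPM). The intervals of drought libraries 1 and 3, at 362 to 497 and 453 to 592 CPM, overlapped. Control library 1 (200 to 280 CPM) lay above control libraries 2 and 3, whose intervals of 92.6 to 147 and 118 to 175 CPM overlapped each other. The closest pair of drought and control libraries was drought library 1 over control library 1, with a ratio of 1.79, and the most distant was drought library 2 over control library 2, with a ratio of 10.4.

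miR394-5p was a miRNA of middling abundance that moved up the order of the 137 entries. It ranked 51, 36 and 49 by count within drought libraries 1 to 3, against 58, 71 and 66 within control libraries 1 to 3. It took 0.0361%, 0.165% and 0.0515% of the counts of the drought libraries, against 0.0216%, 0.0118% and 0.0139% of the control libraries. The Wilson intervals of the closest libraries, 0.0309% to 0.0422% in drought library 1 and 0.0184% to 0.0255% in control library 1, did not overlap.

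**Figure D1:**
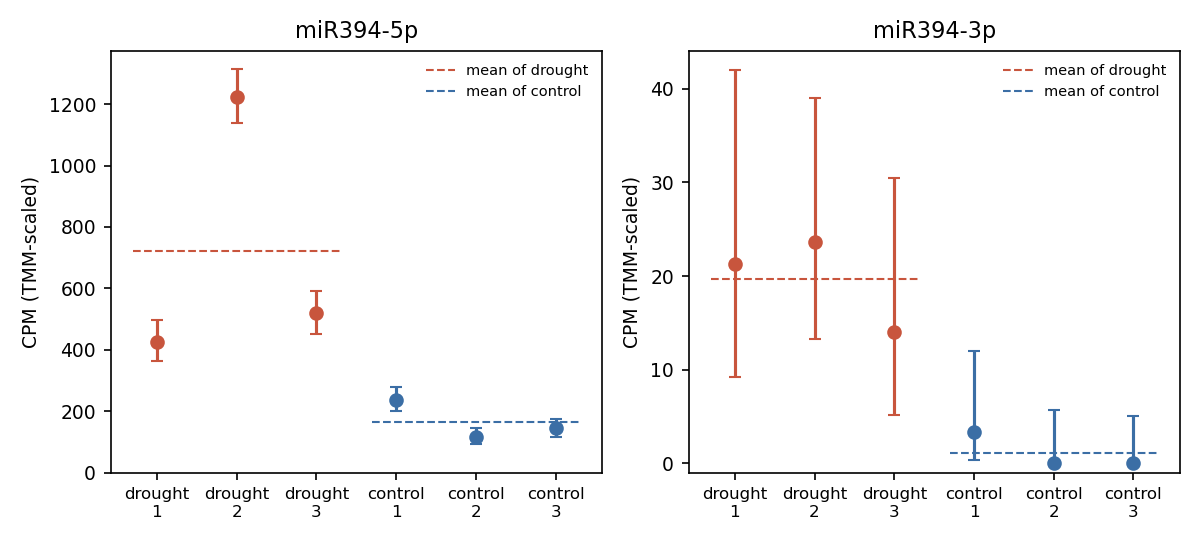
CPM (TMM-scaled, linear axis) of miR394-5p (left) and miR394-3p (right) in each library, with 95% Poisson intervals as bars and group means as dashed lines. The 3 drought libraries lie above the 3 control libraries for both arms, and drought library 2 holds 1223 CPM of the 5p arm.

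miR394-5p rose in drought fruit, to 723 ± 436 CPM, against 166 ± 63.1 CPM in control fruit (SD, n = 3 each). The log2 fold change was 2.12 ± 0.51 (SE; 95% interval 0.97 to 3.27), a 4.35-fold difference (adjusted p = 0.0176 by Benjamini-Hochberg over 99 tested miRNAs, quasi-likelihood test of edgeR). In that test 20.2% of the miRNAs passed in either direction and 9.09% rose, which was 9 rises and 11 falls, and 34 had an unadjusted p under 0.05. With library totals alone there were 16 rises and 11 falls, and with upper-quartile scaling 16 and 10. The drought libraries lay wholly above the control libraries in 18.2% of the tested miRNAs. An exact two-sided permutation test on the CPM values of miR394-5p gave p = 0.1, the smallest that 3 against 3 libraries allow. In bulk fruit, more cells that hold miR394 and more miR394 per cell cannot be told apart.

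Among the 99 tested miRNAs, miR394-5p had the fourth highest log2 fold change and ranked 52 by mean CPM. Its neighbours in the order of log2 fold changes were miR171b-5p above it at 4.49 ± 0.85 and miR399 below it at 2.08 ± 0.47, the second of which differed from it by less than the SE of either. The value of miR171b-5p rests on a control level near 0, at 1.62 ± 1.66 CPM (SD, n = 3). Over all tested miRNAs the median log2 fold change was 0.16 with TMM scaling, 0.09 with RLE size factors, 0.27 with library totals alone and 0.40 with upper-quartile scaling. Relative to these medians, miR394-5p stood higher by 1.96, 2.06, 2.15 and 1.96 on the log2 scale in the same order of scalings.

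The size of the rise depended on drought library 2. Without that library miR394-5p stood 1.35 ± 0.44 higher on the log2 scale (edgeR adjusted p = 0.00692). Without control replicate 2 it was 2.16 ± 0.70 and did not pass (edgeR adjusted p = 0.0752), nor did it pass without control replicate 3 (2.25 ± 0.75, edgeR adjusted p = 0.0757). It passed in 10 of 13 alternatives, the third that did not being a fit with the replicate number as a block, and over all 13 the adjusted p ran from 0.000339 to 0.0757. miR394-5p varied more between drought libraries than most miRNAs did, with a coefficient of variation of 60.3% in drought and 37.9% in control, against medians of 39.1% in drought and 27.8% in control over the tested miRNAs. Per library total, before TMM scaling, it stood at 361, 1653 and 515 CPM in drought libraries 1 to 3 and at 216, 118 and 139 CPM in control libraries 1 to 3, so drought library 2 was the highest on both scales.

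**Figure D2:**
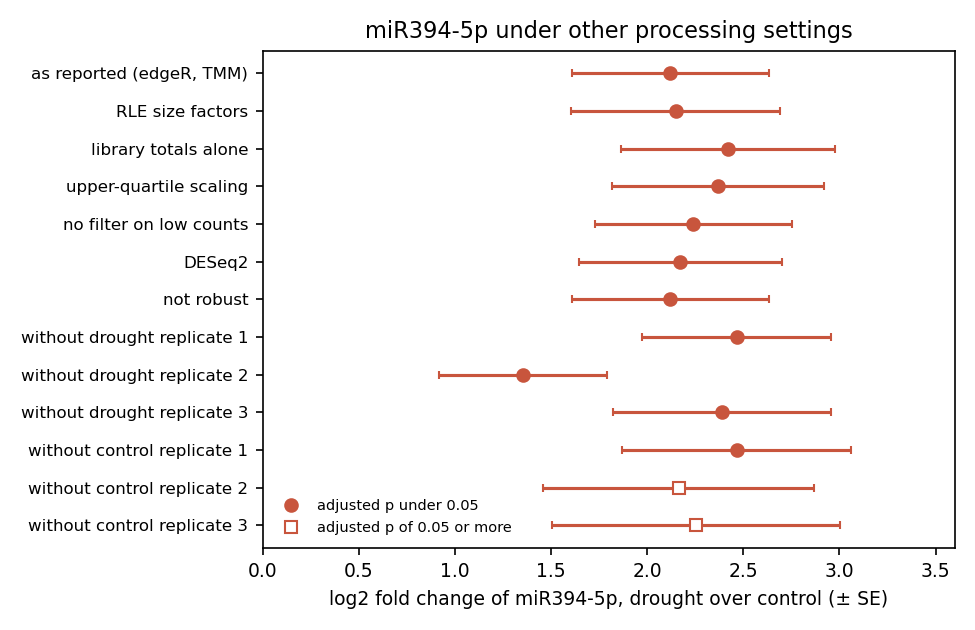
Log2 fold change of miR394-5p, drought over control, with its SE, as reported and with another scaling, filter, tool or set of libraries. Of the settings drawn, which leave out the replicate block, each value lies above 0, the lowest is 1.35 without drought replicate 2, and those without control replicate 2 or 3 have an adjusted p of 0.05 or more (open squares).

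miR394-3p, the passenger arm, was scarce, and 29 of its 31 counts were in drought fruit. Its counts were 8, 15 and 6 in drought libraries 1 to 3, against 2, 0 and 0 in control libraries 1 to 3. That is 21.3, 23.7 and 14.0 CPM in the drought libraries and 3.33, 0 and 0 CPM in the control libraries. All drought libraries lay above all control libraries, which held for 17.1% of the 129 miRNAs with a count. A count of 0 allows up to 3 counts, or 4.66 CPM of the unscaled total in control library 2 and 4.004 CPM in control library 3, so the arm was not detected there rather than shown to be absent. Within drought, the Poisson intervals of the 3p arm overlapped, which on counts of 8, 15 and 6 does not show equal levels. Drought library 2, which held 2.36 times as much miR394-5p as drought library 3, had a Poisson interval for miR394-3p that overlapped those of both other drought libraries (13.3 to 39.1 CPM, against 9.19 to 42.0 in drought library 1 and 5.15 to 30.5 in drought library 3).

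The 3p arm was left out of the main test by the filter on low counts, which asked for 18.0 CPM of the unscaled total in 3 libraries and found it in 2. In the fit with no filter, miR394-3p rose by 4.08 ± 1.0 on the log2 scale (edgeR adjusted p = 0.0123 over 129 miRNAs, of which 8.53% rose). Because the control libraries held 2 counts in all, that fitted value depends on the prior count. The summed counts, 29 in drought and 2 in control, had a ratio of 19.9 once divided by the summed TMM-scaled library totals (exact 95% interval 5.03 to 172, counting error only). Without control replicate 1, which held both control counts, the fitted value was 6.47 (edgeR adjusted p = 0.0316), and the rise did not pass without control replicate 2 (3.38, adjusted p = 0.108) or control replicate 3 (3.57, adjusted p = 0.0712). Over all 12 alternatives its adjusted p ran from 0.00529 to 0.108. An exact two-sided permutation test on the CPM values gave p = 0.1, again the smallest possible.

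With both arms summed, the miR394 family rose to 729 ± 413 CPM in drought, against 169 ± 61.4 CPM in control (SD, n = 3 each; CPM scaled on the family table). The 3 drought libraries held 412, 1196 and 579 CPM and the 3 control libraries 238, 122 and 147 CPM. It was higher in drought by 2.11 ± 0.40 on the log2 scale (edgeR adjusted p = 4.73e-06 over 52 families, of which 21.2% rose). The family sum is nearly the 5p arm alone, from the same libraries. Its smaller adjusted p is therefore not stronger or separate evidence of the rise. That adjusted p also depended on how the fit estimated the spread, and without robust estimation it was 0.00102 (edgeR). The family passed in each of 13 alternatives, with log2 fold changes from 1.37 without drought replicate 2 to 2.55 with upper-quartile scaling.

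The authors' deposited table gives its own comparison of drought with control, by a test it does not name. In the authors' deposited table miR394-5p had a log2 fold change of 2.24 with a false discovery rate of 0.000243. In the authors' deposited table miR394-3p had 4.09 with a false discovery rate of 0.000337. The authors' deposited table has 32 of 129 miRNAs under 0.05, 18 that rose and 14 that fell.

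The 5p arm made up nearly all miR394 counts in both groups. The 3p share of both arms was 4.76%, 1.90% and 2.63% in drought libraries 1 to 3, against 1.38%, 0% and 0% in control libraries 1 to 3. Pooled by group, 29 of 1186 counts were of the 3p arm in drought, 2.45% (Wilson interval 1.71% to 3.49%), against 2 of 325 in control, 0.615% (0.169% to 2.22%). The intervals overlapped, and at the drought share the 325 control counts would have held 7.95 counts of the 3p arm, where 2 were seen. A count of 0 allows up to 3 counts, a share of 3.95% in control library 2 and 2.88% in control library 3, and the upper Wilson bounds there were 4.81% and 3.56%. The Wilson interval of each drought library, such as 2.43% to 9.11% in drought library 1, overlapped that of each control library. Overlapping intervals, here or for the pooled shares, do not show that the shares are equal. Single libraries were not tested against each other.

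The ratio of the arms did not pass a test of its change. The log2 ratio of 5p to 3p, with 0.5 added to each count, was 4.99 ± 0.71 in drought and 6.94 ± 0.97 in control (SD, n = 3 each). The difference was -1.94 ± 0.65 (SE; 95% interval -3.42 to -0.46; limma adjusted p = 0.133 over 25 precursors with both arms counted). Of those precursors 0 passed in limma (0% called), 4 had an unadjusted p under 0.05, miR394 among them, and the exact permutation p for miR394 was 0.1. In 8% of the precursors the drought libraries lay wholly below the control libraries, miR394 being 1 of 2. With 2 added to each count in place of 0.5, the difference was -0.62 ± 0.53 (limma adjusted p = 0.555, the highest of 10 alternatives, the lowest being 0.0787), since the control counts of the 3p arm are near 0. miR394 met the minimum of 10 counts per arm through drought, which held 29 of the 31 counts of its 3p arm. Over all libraries the less abundant arm of miR394 made up 2.05% of both, against a median of 16.9% over the 25 precursors.

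**Figure D3:**
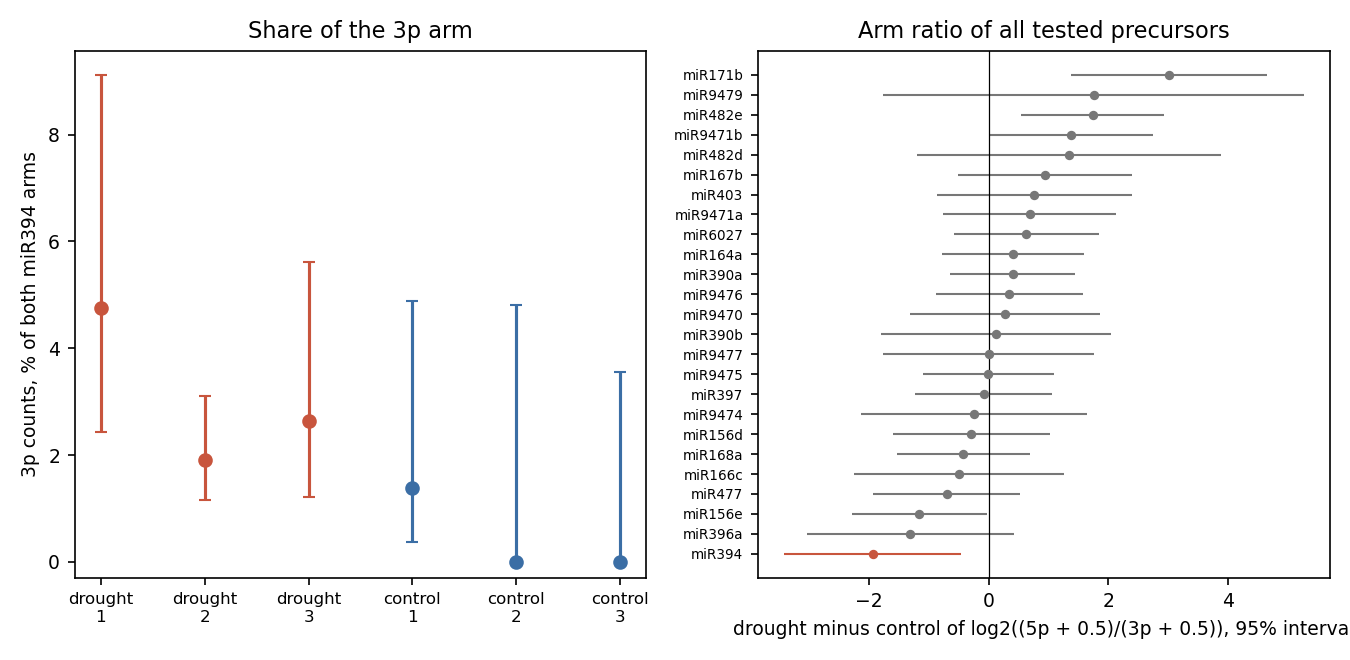
Left, the 3p share of miR394 counts in each library in percent, with 95% Wilson intervals. Right, the difference between drought and control in the log2 ratio of 5p to 3p counts, with 0.5 added to each count, for 25 precursors, with 95% intervals from limma. miR394, in red, lies lowest at -1.94, and its limma adjusted p of 0.133 did not pass. That value depends on the 0.5 added, since control counts of the 3p arm are near 0. With 2 added it is -0.62.

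Other miRNAs that act on the ubiquitin system were taken as a list of all entries of miR393, miR394, miR399 and miR827. Of its 6 entries 4 could be tested, of which 2 rose and 0 fell, against 9.09% rises among all tested miRNAs. The median log2 fold change of the 4 was 1.97, and 1.86 without miR394-5p, against 0.16 for all tested miRNAs. The 2 rises were miR394-5p, the member around which the list was made, and miR399, which targets PHO2, the ubiquitin-conjugating enzyme that limits phosphate uptake. Of the 4 tested entries, miR399 and miR399b belong to the same family, so the share of rises rests on few separate families.

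miR399 stood at 383, 317 and 736 CPM in drought libraries 1 to 3 and at 84.8, 147 and 107 CPM in control libraries 1 to 3 (edgeR adjusted p = 0.0123). Its highest drought library was library 3, not library 2 as for miR394-5p. miR399b, another member of that family, differed by 1.86 ± 0.60 on the log2 scale (edgeR adjusted p = 0.0529), with its highest value, 413 CPM, in drought library 1. miR827, which in Arabidopsis targets the ubiquitin ligase gene NLA, stood at 36.2 ± 27.5 CPM in drought and 18.8 ± 8.18 CPM in control (SD, n = 3 each), a difference that did not pass (0.95 ± 0.67 on the log2 scale, edgeR adjusted p = 0.313). miR393, which targets the TIR1/AFB auxin receptors and so, like miR394, acts on F-box genes, was left out of the test by the filter. Its counts were 22, 9 and 2 in drought libraries 1 to 3, against 5, 0 and 3 in control libraries 1 to 3, so the groups overlapped.

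**Figure D4:**
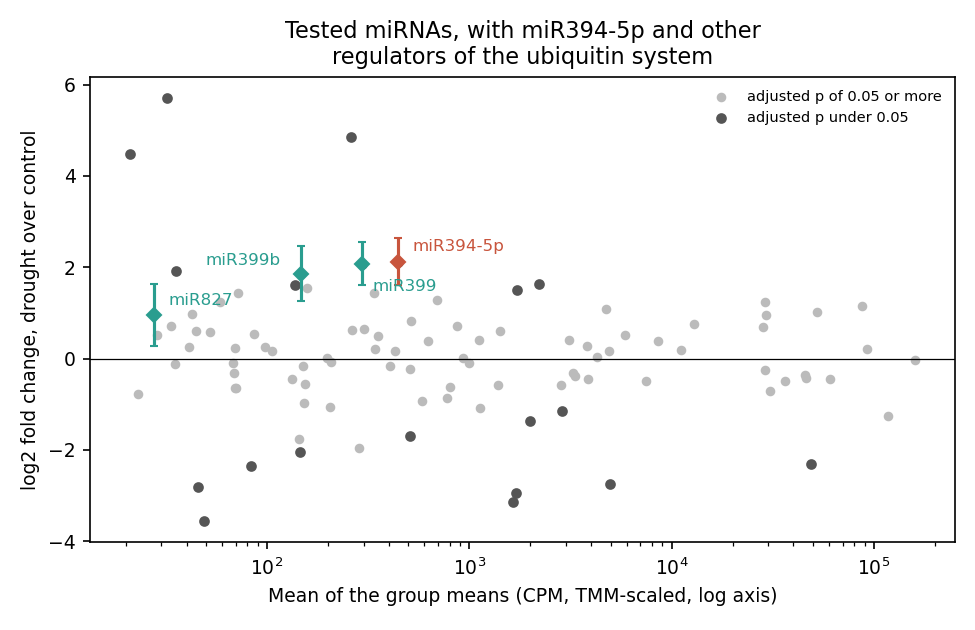
Log2 fold change, drought over control, of the 99 tested miRNAs against the mean of their drought and control CPM (log axis), with SE bars on miR394-5p (red) and the other tested regulators of the ubiquitin system (green). miR394-5p at 2.12, miR399 at 2.08 and miR399b at 1.86 lie close together, and the first 2 passed the test.

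The families with which miR394 shares a role in leaves and meristems (miR164, miR165, miR166, miR319, miR390 and miR396) were counted with it as a list. Of these, miR165 had no entry among the 137. The list gave 15 tested entries, 9 of them with a positive log2 fold change and with a median of 0.25. Of the 15, 1, miR394-5p, rose and 2, both arms of miR164a, fell. Over all 99 tested miRNAs 53 had a positive value, 9 (9.09%) rose and 11 fell, with a median of 0.16, so the list stood near that background. The most abundant entries of the list missed the threshold. The log2 fold change was 0.21 ± 0.31 for miR166a, a repressor of HD-ZIP III genes (edgeR adjusted p = 0.636), and, for miR396b, a repressor of growth-regulating factor genes, -0.44 ± 0.35 (edgeR adjusted p = 0.372). Among families with published responses to drought or abscisic acid (miR159, miR160, miR167, miR168, miR169, miR393, miR394, miR396, miR398 and miR408), miR394-5p was the 1 rise in 17 tested entries, beside 3 falls, and the median was -0.37, where all 99 tested miRNAs held 9 rises and 11 falls with a median of 0.16. The most abundant entry of that list, miR159, stood at -0.03 ± 0.32 (edgeR adjusted p = 0.949), a value that was 0.11 with library totals alone and 0.19 with upper-quartile scaling. The 3 falls were both arms of miR167b and miR159b, of the same family as miR159, which stood at -2.32 ± 0.49 (edgeR adjusted p = 0.0095).

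Among the 99 tested miRNAs, those whose log2 CPM ran most like miR394-5p over the 6 libraries were miR9474-3p (Pearson r = 0.99), miR171d (0.95), miR171b-3p (0.90), miR1918 (0.86) and miR172d (0.85). Of these, miR9474-3p and miR1918 rose in the edgeR test. Within groups, after each group's mean was taken off, r was 0.97 for miR9474-3p and between 0.46 and 0.76 for the other 4. Over all tested miRNAs the within-group r with miR394-5p ran from -0.98 to 0.99, so 0.97 was not the highest. miR9474-3p had 24.0, 125 and 39.7 CPM in drought libraries 1 to 3 and 1.66, 0 and 1.39 CPM in control libraries 1 to 3, so that, like miR394-5p, it was highest in drought library 2. Among the same 99, miR394-3p ran most like miR9474-5p (r = 0.95), miR9474-3p (0.94), miR394-5p (0.93), miR395a (0.93) and miR1918 (0.91). Both arms of miR394 correlated with r = 0.93 over the 6 libraries and 0.65 within groups. These values are descriptions of 6 libraries that share their depth and scaling, and a difference between the groups alone raises them.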

How the data were processed

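Per the labels' protocols, total RNA of green fruit was cleaned of polysaccharides and polyphenols and treated with DNase, and 240 ng went into NEBNext small RNA libraries. The deposited table gives, per the file headers, a whole-number count of each of 137 miRNAs in each library. The authors' CPM values are a scaled signal: counts divided by 1 constant per library, which equals the total times its TMM factor computed without a filter. The authors' signed fold change (a score), log2 fold change and p-values come from a test that is not named. The trimmer, aligner, mismatch rule, database release and build were not given in the sources used here. Coordinates are therefore left out. Adapter ligation favours some ends, so the levels of different arms are not molar amounts.

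Libraries were grouped by title. The count test was that of edgeR 4.0.16 (R 4.3.3; quasi-likelihood, robust, TMM, filterByExpr with minimum count 10 and total 15, group as the only term), which kept 99 miRNAs. The filter dropped miR394-3p, so its value is from the planned fit with no filter, and its alternatives, combined with no filter, were added after the data were seen. Arm ratios were tested with limma 3.58.1 over precursors with at least 10 counts per arm. An adjusted p under 0.05 passed. Likeness used log2 CPM with a prior count of 2. Scripts were tested on simulated data. DESeq2 1.42.0, other scalings, a replicate block and left-out libraries were alternatives. No 2 libraries agreed within sampling noise (chi-square per degree of freedom 50.1 or more). The text names both arms, the 5 tested miRNAs most correlated with each, the tested ubiquitin regulators and the 2 most abundant of each other list. The entries miR393, miR164a, miR159b, miR167b, miR396a and miR9471b and the neighbours in fold order were named after their values were seen. Members and lists were chosen with earlier results of these data known.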

Additional observations from a re-analysis of the deposited data

How the results depend on the processing

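miR394-5p kept its direction in 13 alternatives and passed in 10, with log2 fold changes from 2.01 to 2.42 under other scalings, filters, tools or the block and from 1.35 (without drought replicate 2) to 2.47 with 1 library left out. miR394-3p kept its direction in 12 and passed in 10, from 3.98 to 4.44 and, with 1 library left out, from 3.38 to 6.47, where it did not pass without control replicate 2 (3.38) or 3 (3.57). The family passed in all 13 and the arm ratio in 0 of 10. The number of miRNAs past the threshold, 20, was 9 without control replicate 2, 13 without control replicate 3 and 41 without drought replicate 2. With the replicate number as a block it was 12, and miR394-5p stood at 2.01 (edgeR adjusted p = 0.0642). The numbers are not shown to pair the libraries: deviations of same-numbered libraries from their group means correlated with r = 0.10, -0.24 and 0.01, and drought library 3 correlated best with control library 2 (r = 0.30). The cause of these differences was not tested. Counts of 0 to 15 limit what can be said of miR394-3p and of the arm ratio.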

Other observations

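The precursors other than miR394 with an unadjusted p under 0.05 for a change in arm ratio, chosen after their values were seen, were miR171b, miR482e and miR156e. The log2 ratio of 5p to 3p of miR171b was -1.18 ± 1.14 in drought and -4.19 ± 0.87 in control (SD, n = 3 each), a difference of 3.01 ± 0.72 (SE; limma adjusted p = 0.0652). Its 5p arm stood at 1.62 ± 1.66 CPM in control (SD, n = 3), near 0, so the control ratio depends on the 0.5 added to each count. For miR482e the log2 ratio was -3.46 ± 0.56 in drought and -5.19 ± 0.45 in control, a difference of 1.74 ± 0.53 (limma adjusted p = 0.122), and for miR156e the difference was -1.16 ± 0.49 (limma adjusted p = 0.251). In these 3 precursors and in miR394 the less abundant arm had the higher share in drought, and 0 of the 4 differences passed. By mean log2 ratio the same direction was seen in other tested precursors, miR396a and miR9471b among them, though not in all. It was therefore not particular to these 4.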
